A study of Mus musculus with 28 samples.

Results

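A stretch of mouse chromosome 2, in a window set around Cwc22, was densely covered by peaks in 1 library of each of 2 DNA marks and nearly bare in the other libraries. The region described here is the 600 kb window from 77500001 to 78100000 (build mm9), set around Cwc22 and the copy-number variable segment that holds it. Every peak overlapping the window was taken, which gave 325 of the 1489550 peaks in 11 lists. The window was selected on the peak numbers and covered lengths of these same lists, so every comparison of the 2 dense libraries with the rest is a description and carries no test; tests were run between DKO and WT.

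Cwc22 encodes a splicing factor that takes part in loading the exon junction complex onto messenger RNA, the protein mark that spliced transcripts carry to translation and to quality control. In mice the gene lies in a DNA segment, known as R2d, whose number of copies differs among strains and wild populations. The marks profiled here are 5-methylcytosine (5mC) and 5-hydroxymethylcytosine (5hmC), the product of 5mC oxidation by the TET enzymes. Both were read by enrichment, so the signal at a place can follow the amount of a mark per copy as well as the number of copies of that DNA in the sample.

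Young C57BL/6 mice, 6 to 10 weeks old, gave the bone marrow cells, named LK in the labels, from which each library was made; peak lists hold no expression values by which that cell type could be checked. The genotypes were the Tet2 knockout (Tet2KO), the combined knockout of Tet1 and Tet2 (DKO) and wild type (WT). Capture of 5hmC by chemical labelling (hMe-Seal) gave 2 libraries per genotype, and immunoprecipitation of methylated DNA (MeDIP-seq) for 5mC gave 1 Tet2KO, 2 DKO and 2 WT libraries. The labels give neither sex nor the number of animals in a library, nor the knockout constructs, and nothing in them ties 2 libraries of a genotype to different mice. The 5mC Tet2KO library is number 2 by its title, which is followed here, and number 1 by the name of its list. Library depth is unknown, and the lists ranged from 120243 to 147934 peaks. A gene annotation of mm9 was not used here, so the ends of Cwc22 were not drawn. In a RefSeq gene table of another build (GRCm38.p6), the nearest genes before Cwc22 are Zfp385b, which encodes a zinc finger protein, and the long non-coding RNA Gm35431, and those after it are the pseudogene Gm13726 and the long non-coding RNA Gm52519.

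In 5mC, the Tet2KO library had 129 peaks in the window, against 36 and 27 in the DKO libraries and 31 and 32 in the WT libraries. Its peaks covered 58.7 kb of the window, against 9.93 and 8.64 kb in DKO and 9.90 and 8.16 kb in WT. The single Tet2KO library was thus far above all 4 others, which overlapped by genotype. In 5hmC, Tet2KO replicate 2 had 55 peaks and Tet2KO replicate 1 had 2, against 3 and 5 in DKO and 3 and 2 in WT. The peaks of Tet2KO replicate 2 covered 61.7 kb and those of Tet2KO replicate 1 covered 1.16 kb, against 1.49 and 2.24 kb in DKO and 1.39 and 1.25 kb in WT. Tet2KO replicate 1 covered less than every DKO and WT library, so the high 5hmC value of the genotype came from 1 library. No input library, read depth or other measure of copy number was among the values used here, so extra copies of this DNA and more of both marks on the usual copies cannot be told apart.

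In steps of 10 kb, the excess was bounded sharply on both sides. A step was counted as called where a library was at least 5 percentage points of covered length above the highest other library of its assay. Over the 60 steps of the window, the 5mC Tet2KO library was called in 16, all of them consecutive, from 77710001 to 77870000. Genome-wide, 0.32% of 109149 steps with a 5mC peak were called by the same rule. In 5hmC, Tet2KO replicate 2 was called in 13 of the 60 steps, and all 13 lay inside the same 160 kb run; genome-wide, 2.65% of 85776 steps were called. The called step nearest the threshold had a difference of 6.69 points in 5mC and 12.1 points in 5hmC, and the highest step that was not called had 1.54 points in 5mC and 0 in 5hmC.

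**Figure D1:**
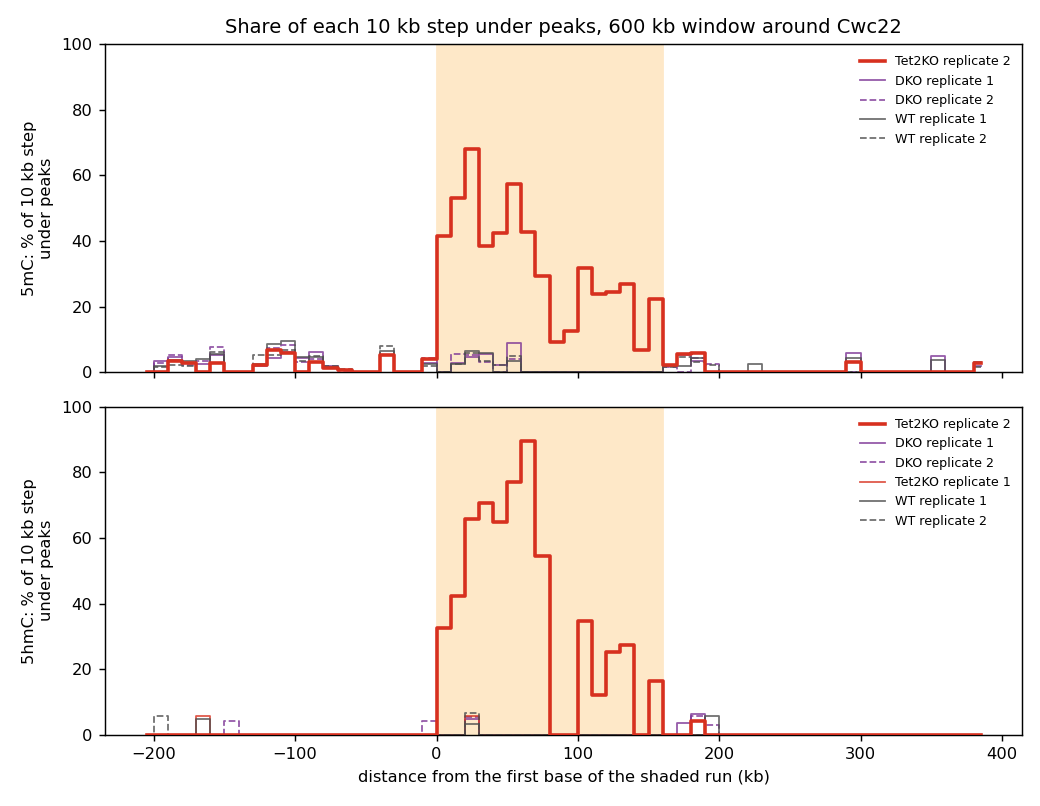
Percentage of each 10 kb step under peaks for 5mC (upper panel) and 5hmC (lower panel) over the 600 kb window, with distance counted in kb from the first base of the shaded 160 kb run. The thick red line is Tet2KO replicate 2 in both panels, thin lines are the other libraries, and the 5mC Tet2KO line lies above the others in all 16 shaded steps.

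Just outside the run the same libraries looked like the rest. In the 50 kb before it, the 5mC Tet2KO library had 2 peaks over 0.902 kb, against 2 and 2 peaks over 0.780 and 0.937 kb in DKO and 2 and 3 peaks over 0.888 and 1.002 kb in WT. In the 50 kb after it, the 5mC Tet2KO library had 5 peaks over 1.395 kb, against 4 and 3 peaks over 1.09 and 0.837 kb in DKO and 3 and 5 peaks over 0.807 and 1.14 kb in WT. In 5hmC, Tet2KO replicate 2 had no peak in the 50 kb before the run and 1 in the 50 kb after it. The flanking values of both dense libraries lay inside the range of the other libraries, apart from the covered 5mC length after the run, which was the highest of the 5.

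Inside the run, the 5mC Tet2KO library had 110 peaks, against 10 and 6 in DKO and 6 and 6 in WT. They covered 33.1% of the 160 kb, against 1.53% and 1.13% in DKO and 1.14% and 1.18% in WT. In 5hmC, Tet2KO replicate 2 had 54 peaks over 38.3% of the run, and every other 5hmC library had exactly 1 peak there. Those single peaks covered 0.363% of the run in Tet2KO replicate 1, against 0.306% and 0.331% in DKO and 0.205% and 0.420% in WT.

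**Figure D2:**
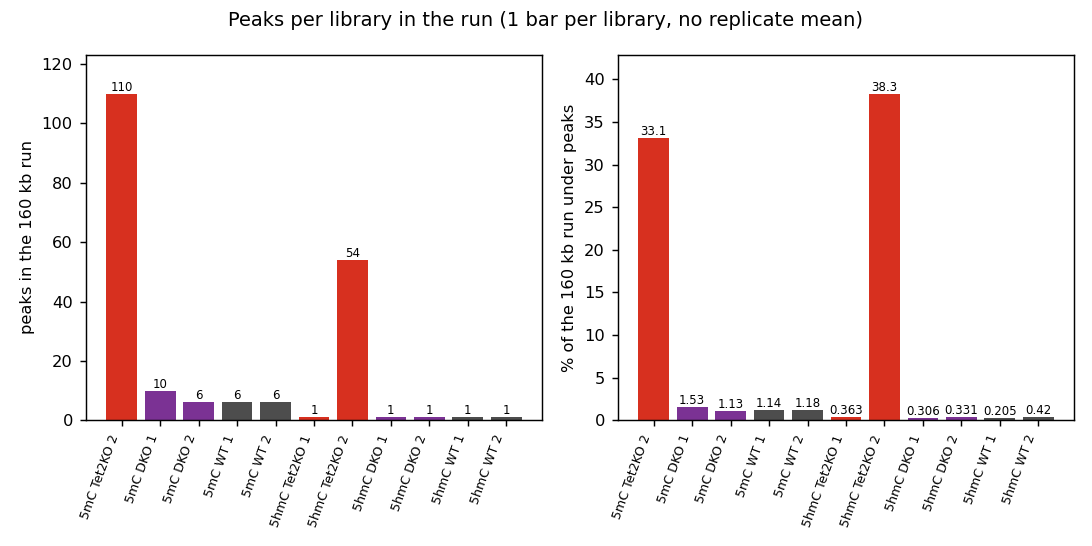
Number of peaks (left) and percentage of the 160 kb run under peaks (right) in each of the 11 libraries, with 1 bar per library and no averaging. The bars of 5mC Tet2KO replicate 2 (110 peaks, 33.1%) and 5hmC Tet2KO replicate 2 (54 peaks, 38.3%) stand above all others, and 5hmC Tet2KO replicate 1 has 1 peak.

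The first and last peaks of the run lay almost at the same places in both marks. The first peak started at 77710833 in the 5mC Tet2KO library and at 77711290 in 5hmC Tet2KO replicate 2, which is 457 bp apart. The last peak ended at 77865310 in 5mC and at 77865343 in 5hmC, which is 33 bp apart. From end to end the peaks therefore spanned 154 kb in each mark. Inside the run, peaks of both marks stopped near the same place, at 77789797 in 5mC and at 77789939 in 5hmC, 142 bp apart. They resumed at different places, after a gap of 7.55 kb in 5mC and of 22.8 kb in 5hmC. With peaks joined over gaps of at most 10 kb, the longest series therefore ran from 77701636 to 77865310 in 5mC and from 77711290 to 77789939 in 5hmC, and only with gaps of at most 5 kb did both series end at this break. These positions were seen in the data and not tested.

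Density differed along the run. In the first 80 kb, from 77710001 to 77790000, the 5mC Tet2KO library had 76 peaks over 46.6% of the length and 5hmC Tet2KO replicate 2 had 40 peaks over 62.2%. In the following 80 kb the 5mC Tet2KO library had 34 peaks over 19.7% and 5hmC Tet2KO replicate 2 had 14 peaks over 14.5%. None of the other 9 libraries had any peak in those later 80 kb. The least dense steps were at 77790001 to 77810000 and 77850001 to 77860000, with 9.28%, 12.5% and 6.69% covered in the 5mC Tet2KO library, and in these 3 steps 5hmC Tet2KO replicate 2 had no peak. Both libraries were called in 13 of the 16 steps.

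The densest places differed between the marks. For 5mC, Tet2KO coverage was highest in the step 77730001 to 77740000, at 67.9%, where DKO had 4.75% and 5.19% and WT had 6.36% and 5.87%. For 5hmC, coverage in Tet2KO replicate 2 was highest at 77770001 to 77780000, at 89.5%, where the other 5 libraries had no peak and the 5mC Tet2KO library had 42.6%. Across the 16 steps, the coverage of both dense libraries was correlated (Pearson r = 0.81, Spearman rho = 0.89, over 16 neighbouring steps, which share the same DNA and its base composition). These coefficients include the drop of both libraries from the first 80 kb of the run to the later 80 kb. Within the first 80 kb the order of the steps by coverage differed between the marks, and no coefficient is given for either part alone. The coverage of the 5mC Tet2KO library also followed the mean of the 4 other 5mC libraries over these steps (Pearson r = 0.77, Spearman rho = 0.73), although those libraries had peaks in only a few of them.

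Of the 16 steps of the run, 11 had no peak in any of the 9 other libraries of either mark. Steps empty in these 9 libraries also lay elsewhere in the window, such as 77570001 to 77580000. Their share over the genome was not computed, so the count of 11 is not shown to be unusual. In the 10 steps from 77770001 to 77870000, which none of those 9 libraries marked, the 5mC Tet2KO library covered between 6.69% and 42.6% of each step, with a median of 24.1%. In the 6 steps before them it covered between 38.6% and 67.9%, with a median of 47.7%, against medians of 3.84% and 3.58% in DKO and 3.06% and 2.92% in WT. Merged over the 5 libraries, the run held 110 separate 5mC regions, of which 101 (91.8%) came from the Tet2KO library alone and 4 were called in all 5. In the rest of the window, 37 regions were merged, of which 1 (2.70%) came from the Tet2KO library alone, 15 were called in all 5 libraries and 18 lacked a Tet2KO peak. In 5hmC, 53 of 54 merged regions of the run (98.1%) came from Tet2KO replicate 2 alone, against 1 of 9 (11.1%) in the rest of the window. The run was defined by steps where the 5mC Tet2KO library exceeds the others, and the window was chosen on these lists. High shares in the run follow from that choice, and the shares over the whole lists were not computed.

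The peaks that the other libraries did have in the run all overlapped a peak of the dense library of their mark. This held for all 10 and 6 DKO peaks and all 6 and 6 WT peaks of 5mC, and for the single 5hmC peak of each of the other 5 libraries. All of them lay at 77710001 to 77770000, where the dense libraries covered 50.1% (5mC) and 58.9% (5hmC) of the length. Peaks there would often overlap in any case, and this was not set against the overlap over the whole lists. At the 4 5mC sites of the run called in all 5 libraries, the median peak width was 804.5 bp in Tet2KO. The corresponding widths were 240 and 317.5 bp in the DKO libraries, the first of which had 6 peaks at these sites, and 327 and 331.5 bp in the WT libraries. At the 15 sites in the rest of the window called in all 5 libraries, it was 281 bp in Tet2KO, within the range of the other libraries, where DKO medians were 284 and 377 bp, and WT medians 326 and 231 bp. The Tet2KO peaks were thus wide at the shared sites of the run and of ordinary width at the shared sites beside it.

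The authors' score of a peak, which has the form of a scaled −log10 p-value, was read here as a percentile within the peak's own list, because the scores of different libraries may not share a scale. At the same 4 sites the median percentile was 97.7 in the 5mC Tet2KO library, against 45.3 and 68.5 in DKO and 55.6 and 63.8 in WT. At the 15 sites outside the run it was 71.7 in Tet2KO, against 65.2 and 60.1 in DKO and 62.7 and 64.3 in WT. The 5mC peak with the highest score in the window, at 77765910 to 77767943, was 2034 bp wide, rank 30 by width in the whole Tet2KO list, and shared its score of 3100 with other peaks (145 in all).

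For 5hmC, 1 site in the window was called in all 6 libraries. Its peak was 1398 bp wide in Tet2KO replicate 2 and 581 bp in Tet2KO replicate 1, against widths of 489 and 530 bp in DKO libraries and of 328 and 672 bp in WT libraries. The score stood at percentile 99.96 of its list in Tet2KO replicate 2 and 63.4 in Tet2KO replicate 1, against 33.6 and 41.8 in DKO and 44.6 and 50.4 in WT. An ordinary 5hmC peak in 5 libraries was thus among the strongest peaks of the remaining one. The strongest 5hmC peaks of Tet2KO replicate 2 in the run lay at 77775888 to 77781105, with a width of 5218 bp and rank 33 by score among 140491 peaks, and at 77734727 to 77736124, the shared site, with rank 57. A peak at 77770692 to 77775531 was 4840 bp wide. The list median of this library was 598 bp, and 36 of its 54 peaks in the run were wider.

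**Figure D3:**
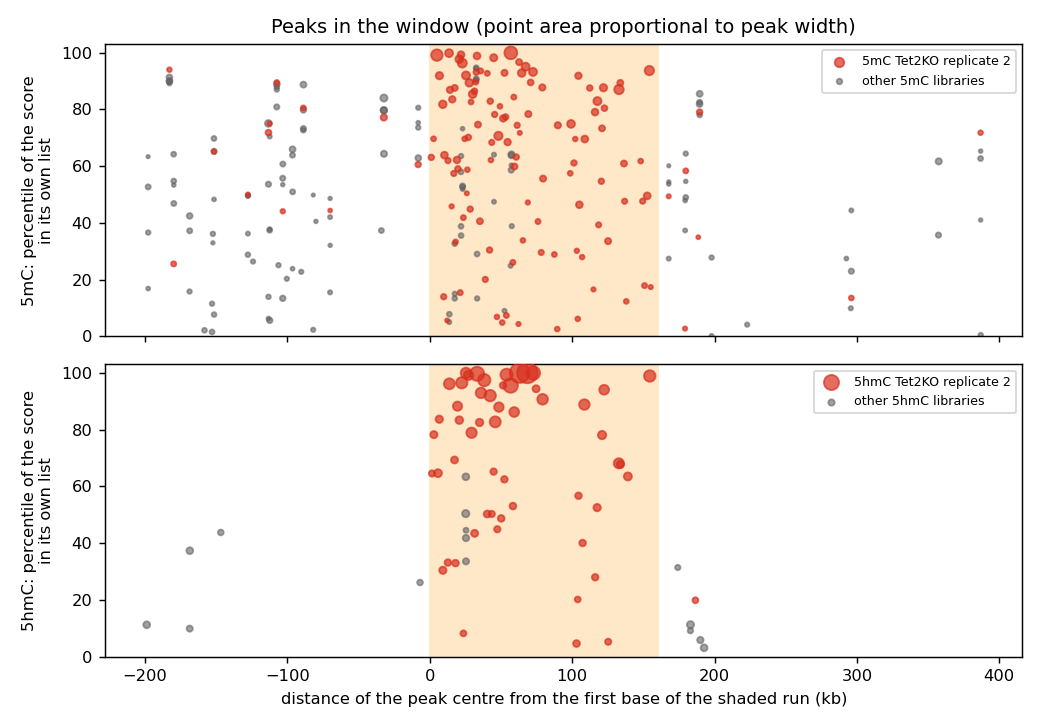
Each peak of the window as a point, with the distance of its centre from the first base of the shaded run (kb) and the percentile of its score within its own list, for 5mC (upper panel) and 5hmC (lower panel); point area is proportional to peak width. Red points are Tet2KO replicate 2 and grey points the other libraries, and at the 5hmC site called in all 6 libraries the red point is at percentile 99.96 and the grey points lie between 33.6 and 63.4.

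Where both dense libraries had peaks, they mostly lay on the same bases. In the 200 kb from 77700001 to 77900000, 65.6% of the length covered in the 5mC Tet2KO library was also covered in 5hmC Tet2KO replicate 2, which is 58.2% of the length covered in that library. By number, 77 of 116 5mC peaks (66.4%) overlapped a 5hmC peak, and 50 of 55 5hmC peaks (90.9%) overlapped a 5mC peak. The 5mC library covered 27.4% of these 200 kb and the 5hmC library 30.9%, and in the first 80 kb of the run 46.6% and 62.2%. Peaks this dense would often overlap in any case, so the shares of overlap should not be read against the 200 kb averages alone. The shares of overlap were also not set against the overlap over the whole lists.

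Set against the whole genome, both libraries had their longest series of called steps here. In the 5mC Tet2KO library the next longest series of called steps had 2 steps, and no other 5mC library had a series of more than 2. In 5hmC Tet2KO replicate 2 the longest series had 8 steps, from 77710001 to 77790000, and the next had 4; the longest series in the other 5hmC libraries had 4 steps in Tet2KO replicate 1, 3 and 3 in DKO, and 4 and 6 in WT. Of the 20 steps of the genome with the largest difference in each library, 14 of the 5mC Tet2KO library and 11 of 5hmC Tet2KO replicate 2 lay in the window. The largest differences were 61.6 points in the 5mC Tet2KO library and 89.5 points in 5hmC Tet2KO replicate 2, against 27.8 and 30.5 points outside the window. A single step with a large difference was also seen in a library with few peaks here: 5hmC Tet2KO replicate 1 covered 75.4% of the step at 3030001 to 3040000 of chromosome 11, where the other 5hmC libraries had no peak. Both libraries were called together in 24 steps (0.0381% of the 63011 steps with a peak in at least 1 library of each mark), 13 of them in the window. Over these 13 the smaller of the 2 differences ranged from 12.1 to 59.0 points with a median of 32.5, and over the 11 elsewhere from 5.20 to 23.0 with a median of 7.50.

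**Figure D4:**
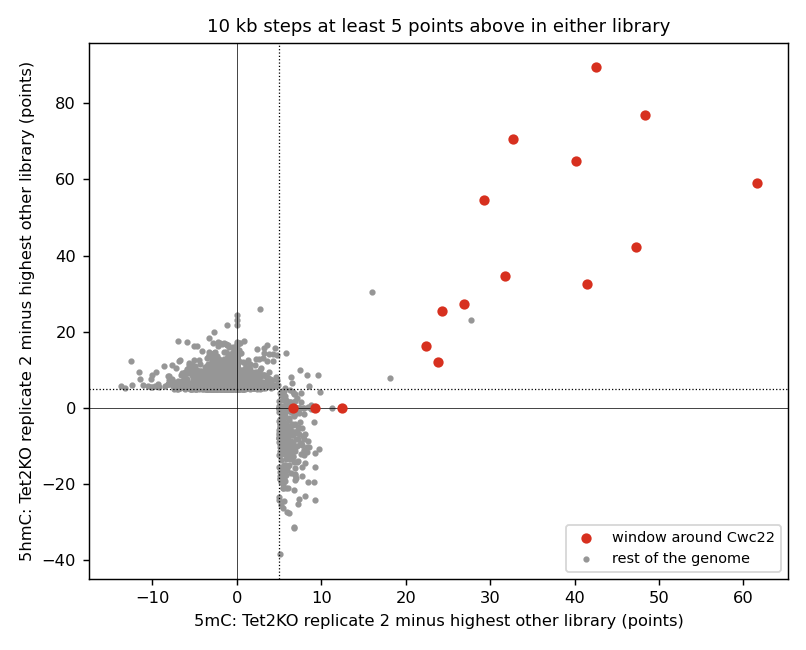
Difference in covered length (percentage points) between 5mC Tet2KO replicate 2 and the highest other 5mC library (horizontal axis) and between 5hmC Tet2KO replicate 2 and the highest other 5hmC library (vertical axis), for each 10 kb step at least 5 points above in either; dotted lines mark 5 points. Red points are steps of the window, of which 13 lie past both lines, and grey points are the rest of the genome, of which 11 do.

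Over the rest of chromosome 2, the dense libraries did not hold more peaks. Outside the window the 5mC Tet2KO library had 10040 peaks, against 10631 and 8614 in DKO and 9065 and 10187 in WT. In 5hmC, Tet2KO replicate 2 had 10573 peaks and Tet2KO replicate 1 had 10280, against 9852 and 10718 in DKO and 9483 and 10055 in WT. By covered length the 5mC Tet2KO library was the highest of its assay there, with 3249 kb against 3077 to 3204 kb. The 5hmC Tet2KO replicate 2 library was the lowest of its assay, with 7294 kb against 7484 to 8183 kb. In the 400 kb of the window outside 77700001 to 77900000, the 5mC Tet2KO library had 13 peaks, fewer than the 21 and 18 in DKO and the 21 and 21 in WT. The 5mC Tet2KO library stood apart in another respect as well. Its covered percentage for the X chromosome was 0.567%, against 0.873% to 1.29% in the other 5mC libraries. It had 14 peaks on the Y chromosome, against 2 to 4. In the dense 5hmC library the X chromosome value was 0.341%, inside the 0.260% to 0.383% of the other 5hmC libraries. Every 5hmC list had 0 peaks on the Y chromosome, so these lists cannot show whether that library shares the Y difference. The part of the 5mC difference on X and Y in the chromosome 2 values was not tested.

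DKO and WT were compared over the window without the 2 dense libraries, and no difference passed a test. For 5hmC, DKO covered 1.86 ± 0.530 kb and WT 1.32 ± 0.0976 kb (SD, n = 2 each), a difference of 0.544 kb (exact two-sided permutation p = 0.333, adjusted 0.500 over 3 tests). With lists shortened to equal length it was 0.1035 kb, with scores under 100 left out it was 0, and with 1 library left out at a time it ranged from 0.169 to 0.919 kb. For 5mC, DKO covered 9.29 ± 0.914 kb and WT 9.03 ± 1.23 kb (SD, n = 2 each), a difference of 0.257 kb (exact two-sided permutation p = 0.667, adjusted 0.667). Its sign turned, to -0.784 kb, when scores under 100 were left out. The third comparison, Tet2KO with WT in 5hmC outside 77700001 to 77900000, is given without its p, because it includes a dense library and leaves out the stretch chosen on it. There Tet2KO replicate 1 covered 0.576 kb and Tet2KO replicate 2 covered 0 kb, against 1.06 and 0.577 kb in WT. With 2 libraries against 2, the smallest p these tests can give is 0.333, so none could have passed.

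A fit with limma over all 10 kb steps of the genome called no step of the window between DKO and WT. For 5hmC, 3 steps of the window could be tested among 67627, and 0% of all steps passed (8653 had an unadjusted p under 0.05, 1 of them in the window). In that step, at 77890001 to 77900000, DKO had 6.44% and 5.78% covered and both WT libraries had 0 (limma, adjusted p = 0.111). With scores under 100 left out, 3077 5hmC steps passed genome-wide, and none of the window could be tested. The step at 77890001 had 4.30% in 5hmC Tet2KO replicate 2 and 0 in Tet2KO replicate 1. For 5mC, 26 steps of the window were tested among 84889, of which 0% passed genome-wide (6227 had an unadjusted p under 0.05) and none of the 26 had an unadjusted p under 0.05. The smallest adjusted p among them in limma was 0.929.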

How the data were processed

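Peak lists of 11 libraries (6 of 5hmC and 5 of 5mC) were analysed, and 17 RNA-seq samples of the series were not analysed here. The authors deposited 1 list per library, with chromosome, start (counted from 0), end and a peak score of at least 50.0. Positions are printed counted from 1. Peak names carry the MACS prefix, and build mm9, MACS 1.4.2, Bowtie 0.12.9 and CASAVA 1.4 are named, without their roles, per the submitters' processing notes. Any control library, duplicate removal and read depth are not given, so a longer list can also reflect depth.

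The window, the lists and the tests were chosen with earlier results of these data known. Overlapping peaks were merged before covered length was counted, in steps of 10 kb. DKO and WT were compared by exact permutation tests, and by limma 3.58.1 (R 4.3.3, trend) on the arcsine of the square root of covered fraction, for steps with a peak in at least 2 of 4 libraries, with Benjamini-Hochberg adjustment and a threshold of 0.05. On simulated data of 67627 steps, limma recovered 80.5% of 200 changes of 0.4 on the arcsine scale and 2% of changes of 0.2 for 5hmC; for 5mC (84889 steps) it recovered 99.5% and 5.5%. The labels do not call the samples of a group separate animals, so p-values cover only the spread between libraries, possibly technical. Places outside the window were named by a fixed rule: the 5 steps of 100 kb where both dense libraries were above every other library of their assay, ranked by the smaller difference. The step on chromosome 11 falls outside this rule and was named as the largest difference of 5hmC Tet2KO replicate 1. Other genes were named only as neighbours of Cwc22, up to 2 on each side. Alternatives were another score minimum, equal numbers of top peaks, other steps and filters, a replicate block and leaving out libraries. Calculations used Python 3.11.15 with SciPy 1.17.1.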

Additional observations from a re-analysis of the deposited data

How the results depend on the processing

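The peak numbers of the dense stretch (77700001 to 77900000) in the 5mC Tet2KO library and in 5hmC Tet2KO replicate 2 stayed within 1.5 times their values under both alternatives, a score minimum of 100 (79 and 40 peaks) and lists shortened to equal length by score (107 and 52 peaks). With a score of at least 100, the few 5hmC peaks of the other libraries there fell to 0 in both DKO and both WT libraries, and 5mC DKO replicate 1 had 5; both 5hmC differences in covered length were then 0 kb. With lists of equal length, 5hmC DKO replicate 2 had 2, and the 5hmC difference between DKO and WT was 0.1035 kb. The difference in covered 5mC between DKO and WT was -0.784 kb with a score of at least 100, and it ranged from -0.613 to 1.13 kb as libraries were left out in turn, negative without DKO replicate 1 (-0.390 kb) or WT replicate 2 (-0.613 kb), so its direction was not stable. For 5hmC the same range was 0.169 to 0.919 kb between DKO and WT, and -0.818 to -0.242 kb between Tet2KO and WT outside the dense stretch. No step of the window was called by limma under any alternative that could be run, leave-one-out included (0 for each mark); with a score of at least 100, no 5hmC step of the window could be tested. Genome-wide, that setting called 3077 5hmC steps, against 0 with all peaks. A replicate block left the DKO minus WT differences at 0.544 and 0.257 kb (exact sign-flip permutation p = 0.500 each, the smallest it can give) and the calls at 0. Deviations of same-numbered DKO and WT libraries had a correlation of 0.025 for 5hmC and -0.055 for 5mC over the steps tested. With only 2 pairs per mark, these values cannot tell whether same-numbered libraries share more than a number. The cause of the changes between settings was not tested. The longest joined 5mC series ended at 77789797 with gaps of at most 5 kb, at 77865310 with 10 kb and at 77899729 with 20 kb, whereas the 5hmC series had the same ends under all 3. Unknown depth limits each count.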

Other observations

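Outside the window, both dense Tet2KO libraries were above every other library of their assay in 435 of the genome's 26421 steps of 100 kb; the window held 2 more. The largest joint difference lay on chromosome 4 at 62100001 to 62200000, with 9.86% covered in 5mC Tet2KO replicate 2 against 5.61% in the highest other 5mC library, and 27.2% in 5hmC Tet2KO replicate 2 against 19.1% in the highest other 5hmC library. The difference came from neighbouring 10 kb steps: at 62160001 to 62170000 it was 16.0 points in 5mC and 30.5 points in 5hmC, and at 62170001 to 62180000 it was 27.8 and 23.0 points. The next 4 places lay on chromosome 17, at 24600001 to 24900000 (3 steps) and 25000001 to 25100000, where the smaller difference was 1.83 to 3.02 points. In the window the same quantity was 35.9 points at 77700001 to 77800000 and 11.02 points at 77800001 to 77900000. No test was made of these places.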
